A study of Mus musculus with 14 samples.

Results

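The clustered replication-dependent histone genes encode most of the core histones H2A, H2B, H3 and H4 and most of the linker histone H1, and their symbols begin with Hist1h, Hist2h, Hist3h or Hist4h. Of the 23298 genes with a value in each of 14 mouse embryonic stem (ES) cell lines, 67 carried such a symbol, and the 60 with a mean value of 10 or more over the 14 lines are described here. They were chosen by symbol and level alone and comprise 6 H1, 13 H2A, 17 H2B, 12 H3 and 12 H4 genes. The mm9 annotation places 48 of them in cluster 1 on chromosome 13, 8 in cluster 2 on chromosome 3, 3 in cluster 3 on chromosome 11 and 1, *Hist4h4*, on chromosome 6. The members nearest above the limit were *Hist1h2ah*, with a mean of 14.4, and *Hist2h3b*, with 23.3, and the genes nearest below it were *Hist2h2aa2*, with 0.346, and *Hist1h2ap*, with 0.087. In 4 members the mean reached 10 in only 1 cross, in the CB lines for *Hist1h2ah*, *Hist1h2ai* and *Hist2h3b* and in the BC lines for *Hist1h3b*. These 4 are members through the cross where they are high, so that their cross differences are descriptions, and counts of members are also given without them.

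The lines came from reciprocal crosses of C57BL/6J (B) and CAST/EiJ (C) mice, the mother being named first, so that BC lines had a C57BL/6J mother and CB lines a CAST/EiJ mother. There were 3 BC XX, 3 BC XY, 2 BC XO, 3 CB XX and 3 CB XY lines, each grown from a single blastocyst, so that 1 line is 1 replicate and no line was treated or edited. All lines were kept in serum with LIF on inactivated mouse embryonic fibroblasts, which were depleted before RNA was isolated. Stranded libraries were made from total RNA after removal of ribosomal RNA, so that transcripts without a poly(A) tail were counted. Numbers 1 to 3 of the CB XX lines follow the table's columns, which do not say which labelled line is which.

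Histone mRNAs of this family are made during S phase, when newly copied DNA has to be packed into nucleosomes, and they are degraded when replication ends. Most lack introns, and in place of a poly(A) tail they end in a short stem-loop that is bound by the stem-loop binding protein *Slbp*. *Npat* drives their transcription at the clusters. Replication-independent histone genes such as *H3f3a* and *H2afz* lie elsewhere in the genome, are polyadenylated and are used throughout the cell cycle. ES cells divide rapidly and spend much of their cycle in S phase.

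The stem-loop was searched for in the 150 bases after the stop codon of the 58 members with an annotated transcript sequence, and 55 of them had it. Its 4 forms in the 12 H4 members occurred in no other class. One example of the form held by 32 members, 1 of the form held by 9, 1 of the form held by 7 H4 members and 1 found in a single H2A member are given here 5′ to 3′ on the strand of the gene, with mm9 positions. All 16 bases are in capitals because each belongs to the stem-loop.
Hist1h1c, chr13:23831381-23831396, plus strand: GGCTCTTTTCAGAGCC
Hist1h3e, chr13:23653772-23653787, minus strand: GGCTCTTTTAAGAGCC
Hist1h4h, chr13:23623327-23623342, plus strand: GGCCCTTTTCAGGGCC
Hist2h2ac, chr3:96024341-96024356, minus strand: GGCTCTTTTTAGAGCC
The letters were not found after *Hist2h2bb*, *Hist2h2be* and *Hist1h2an*. *Hist2h2bb* is also unlike the family in its structure, with 2 exons at chr3:96073644-96082924, plus strand, and its coding sequence was only 70.3% identical to the nearest copy.

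Many core histone genes have close copies, and the coding sequences of 39 members, 10 of H2A, 10 of H2B, 10 of H3 and 9 of H4, were at least 95% identical to another. The nearest copies of the 6 H1 members were 62.5% to 83.9% identical. In all, 7 members shared no word of 50 bases, the length of a read, with another gene of the family. How reads that match several copies were treated is not stated, so that the split of reads between near-identical members is uncertain. Sums over a class are free of that split only if such reads were kept, which is not known. Of members named below, *Hist1h4m* shared 89.8% of its words, *Hist1h2an* 85.8%, *Hist1h2af* and *Hist2h3b* 79.7%, *Hist1h2bk* 73.7%, *Hist1h3e* 41.2% and *Hist1h2ak* 38.8%. *Hist1h4m* was 100% identical in coding sequence to *Hist1h4n*, which had a mean of 0.

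Promoters of 54 members were found among the RefSeq windows of 250 bases before to 50 bases after the start (GRCm38.p6), and 4 motifs were searched for on both strands. CCAAT or ATTGG, the site of NF-Y, was present in 85.2% of the members against 41.1% of 27025 promoters. TATAAA or TTTATA, which can overlap each other, was present in 59.3% against 15.7%. The octamer ATTTGCAT or ATGCAAAT, the site of POU factors, was present in 25.9% against 1.97%, and all its holders were H2A genes (7 of 13) or H2B genes (7 of 14). AAACACA or TGTGTTT, known from H1 promoters, was present in 16.7% against 8.22%, and in 5 of 6 H1 genes. Every H1, H2A, H2B and H3 promoter found held the CCAAT letters, against 3 of 11 H4 promoters, while the TATAAA letters were present in 40% (H3) to 69.2% (H2A) of a class. An H1 promoter with AAACACA and the promoters of *Hist1h3e* and *Hist1h4h*, which recur below, are given 5′ to 3′ on the strand of the gene and with these motifs in capitals, to show windows with and without CCAAT. The window of *Hist1h4h* holds none of these letters, whereas 7 of the 11 H4 promoters hold TATAAA.
Hist1h1c, chr13:23738557-23738806, plus strand: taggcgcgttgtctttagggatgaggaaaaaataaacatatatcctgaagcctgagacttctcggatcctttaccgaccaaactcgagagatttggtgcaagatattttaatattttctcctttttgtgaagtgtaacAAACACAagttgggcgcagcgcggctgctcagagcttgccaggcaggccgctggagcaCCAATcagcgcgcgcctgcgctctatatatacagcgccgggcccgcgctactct
Hist1h3e, chr13:23562386-23562635, minus strand: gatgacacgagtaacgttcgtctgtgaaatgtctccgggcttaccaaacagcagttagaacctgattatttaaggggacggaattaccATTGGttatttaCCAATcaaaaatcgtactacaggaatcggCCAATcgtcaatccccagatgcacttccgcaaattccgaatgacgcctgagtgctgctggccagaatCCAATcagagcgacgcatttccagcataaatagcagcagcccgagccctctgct
Hist1h4h, chr13:23530794-23531043, plus strand: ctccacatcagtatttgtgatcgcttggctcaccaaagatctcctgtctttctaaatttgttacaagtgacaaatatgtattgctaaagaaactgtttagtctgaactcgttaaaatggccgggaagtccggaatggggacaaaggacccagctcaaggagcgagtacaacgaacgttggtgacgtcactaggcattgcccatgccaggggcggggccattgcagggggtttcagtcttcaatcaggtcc

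Values are a read signal per gene that the authors had scaled to a common depth between lines. If the smallest step of a line is taken as 1 read, the BC lines hold 24117730 to 69646317 reads and the CB lines hold 11904427 to 31997696. By that count 3 reads correspond to a value of 1.22 to 7.37. All 14 ES cell markers were present in every line, with *Utf1* at 368 in BC XX 3 as the lowest value. The mean log2(value + 5) of 28 fibroblast markers was 10.77, 11.50 and 11.96 in the BC XX lines and 8.45 to 10.06 in the other lines, and all 28 were above 0 in every line except *Fap*, which was at 0 in CB XX 1. In the line labelled CB XY 2 the value of *Uty*, a Y-linked gene, was 19.6, and in that labelled CB XY 3 it was 45.4, against 945 to 2088 in the other XY lines. The XX and XO lines had 12.8 to 195, a range that holds both values. Results of the CB XY lines are also given with CB XY 1 as the only CB XY line, for single genes by class.

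BC XX 3 and CB XX 3 stood apart from their groups in histone RNA. BC XX 3 was below every other line in 52 of 60 members, against 21.8% of all genes tested, and its median difference from BC XX 1 and 2 was -1.41 on the log2 scale. CB XX 3 was below both other CB XX lines in 52 members, against 34.1% of all genes tested, with a median difference of -1.51, and in 43 members it lay nearer to the BC XX mean than to its own group. CB XX 3 was also the deepest CB line on that count, and the fibroblast level of BC XX 3 was the highest of all lines. Other genes of these lines moved with the GC content of the transcript. In BC XX 3 their median difference ran from 0.35 at 30% to 40% GC to -0.67 at 60% to 65%, where the members had -1.84. In CB XX 3 it ran from 0.27 to -0.52 in the same ranges, and the members had -1.66 in the second. The part of depth, of GC content and of fibroblast RNA in these values was not tested.

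Summed over the 60 members, histone RNA was higher in both CB groups than in the BC groups. The sums were 65171, 52461 and 26564 in the BC XX lines and 66540, 67924 and 72061 in the BC XY lines. The XO lines had sums of 75979 and 80393. In the CB lines the sums were 178920, 164300 and 81102 for XX and 178770, 141960 and 128040 for XY. Every CB line lay above every BC line, by little in CB XX 3, at 81102, against the higher XO line, at 80393. The ratio of group means was 2.94 for XX lines (2.40 without BC XX 3, 3.57 without CB XX 3 and 2.92 without both) and 2.17 for XY lines (2.60 with CB XY 1 alone). These ratios are descriptions without a test. As bulk RNA was measured, more histone RNA per cell and more cells that make it cannot be told apart. The authors prepared the libraries in batches, and which lines shared a batch is not stated. A difference between batches therefore cannot be told apart from a difference between crosses.

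**Figure D1:**
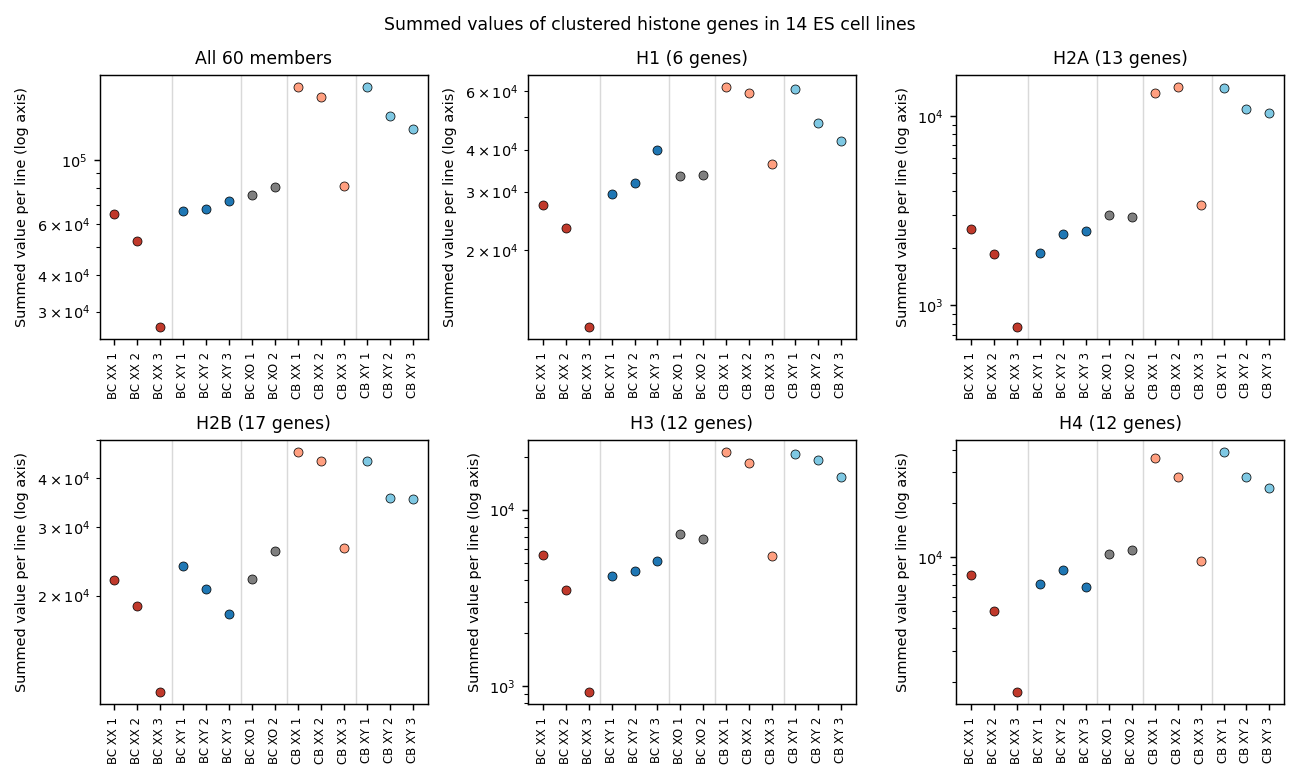
Summed value of all members and of each histone class (log axes, scaled read signal) in each of the 14 lines, 1 point per line. The CB lines except CB XX 3 lie above the BC lines in each panel, and BC XX 3 is the lowest point in every panel.

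The makeup of the sum differed between the crosses. H1 genes held 41.9, 44.5 and 44.5% of the member sum in the BC XX lines, 44.3, 46.8 and 55.2% in BC XY, 43.8 and 41.9% in XO, 34.5, 35.98 and 44.6% in CB XX and 34.1, 33.9 and 33.3% in CB XY. H2A genes held 2.84% to 3.95% in the 8 BC lines. In CB lines they held 7.39, 8.71 and 4.19% in XX and 7.84, 7.70 and 8.10% in XY. The 5 CB lines other than CB XX 3 thus lay below all BC lines in the H1 share and above them in the H2A share. The ratio of class sums between CB XX and BC XX lines was 2.51 for H1, 5.97 for H2A, 2.26 for H2B, 4.56 for H3 and 5.05 for H4. Between CB XY and BC XY lines it was 1.4997, 5.24, 1.84, 3.9955 and 4.09 in the same order, and with CB XY 1 alone 1.81, 6.23, 2.13, 4.49 and 5.21. The H2B sums were mostly those of 1 gene, *Hist2h2bb*, with a mean of 17307 out of 28231 for the 17 H2B members. The median H2B member differed 3.13-fold in XX and 2.42-fold in XY lines on the scale of log2(value + 5).

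Comparison of the crosses gave the most calls among members. In XX lines 45 of 60 members were higher in CB and 0 were lower by limma at an FDR of 0.05, against 2.9% of 16261 genes called higher and 4.25% called lower. At the same time 55 members had an unadjusted p under 0.05 (53 higher and 2, *Hist1h3b* and *Hist2h3c1*, lower), against 26.5% of all genes. The median member difference, in log2(value + 5), was 2.06, against 0.01 over all genes tested. All 3 CB XX lines lay above all 3 BC XX lines in 43 members, against 12.6% of all genes. In XY lines 15 members were higher in CB and 0 were lower, against 0.547% and 0.0922% of all genes. In these lines 46 members had an unadjusted p under 0.05 (45 higher and 1, *Hist1h3b*, lower), against 18.7% of all genes. The median was 1.68, against -0.01 over all genes, and 46 members did not overlap, with CB higher, against 14% of all genes. Without the 4 members that reached the limit in only 1 cross, 43 of 56 were higher in CB XX lines and 13 of 56 in CB XY lines, with medians of 2.06 and 1.68. The 2 comparisons share no line but use a common estimate of the spread.

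These counts depended on single lines. For XX lines the count was 5 without BC XX 3, 6 without CB XX 1, 13 without CB XX 2 and 26 without BC XX 2. Over all genes 14, 17, 65 and 80 were then called higher and 105, 133, 322 and 209 lower, in place of 471 and 691. Without BC XX 3 and CB XX 3 together 48 members were higher and 1, *Hist1h3b*, lower, against 591 and 530 of all genes. The median was 1.43 to 2.46 with each BC XX or CB XX line left out in turn. For XY lines the count was 0 without any one of the 6 XY lines, against 0 to 6 of all genes called higher and 2 to 6 lower. These fits had 38 to 45 members at an unadjusted p of 0.05 and medians of 1.55 to 1.82. XX lines enter the XY comparison through the spread alone. Without BC XX 2 the count was 6 (all genes 23 higher and 4 lower). It was 34 without BC XX 3, 33 higher and 1 lower (all genes 279 and 70). Without CB XX 3 it was 32, 31 higher and 1 lower (336 and 86). With CB XY 1 as the sole CB XY line, assumed to vary like the other groups, it was 0, with 42 members at an unadjusted p of 0.05 and a median of 2.04. The class medians were then 0.86 for H1, 2.46 for H2A, 1.54 for H2B, 2.03 for H3 and 2.21 for H4.

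**Figure D2:**
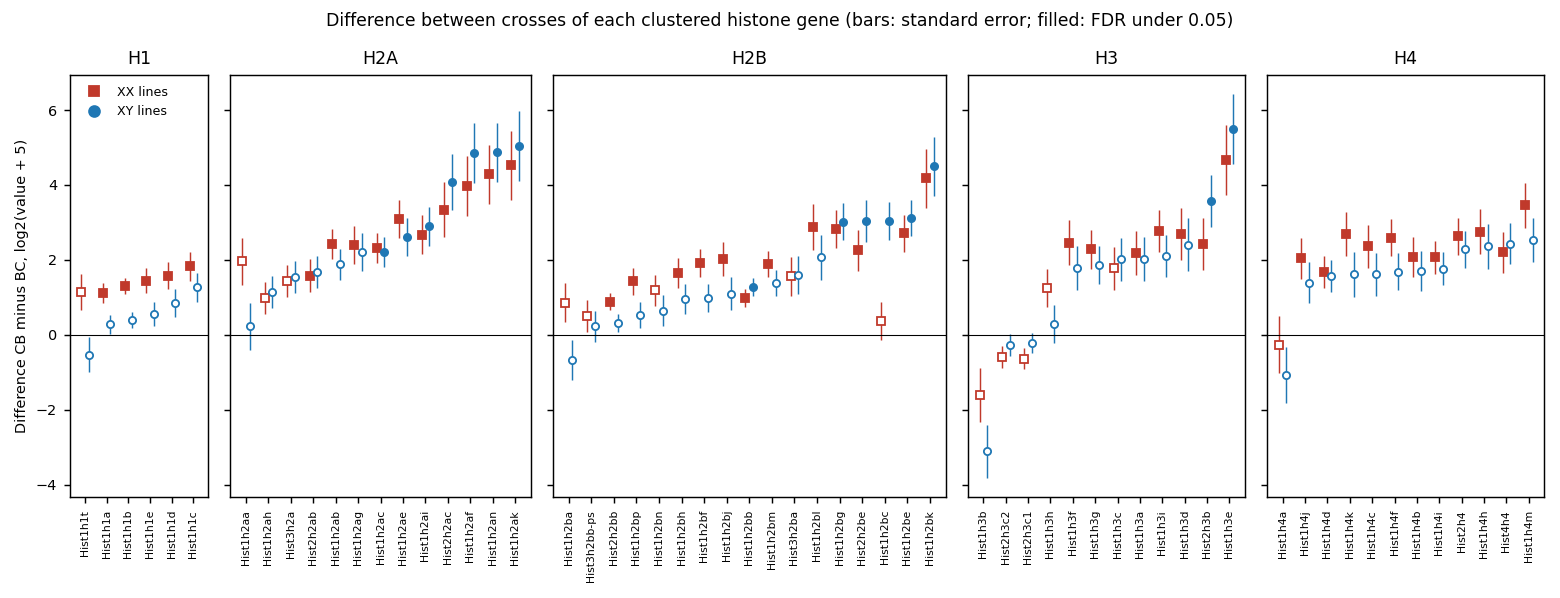
Difference between CB and BC lines of each member (log2(value + 5), bars: standard error), by class, in XX lines (red squares) and XY lines (blue circles), filled where the FDR was under 0.05. Most members lie above 0 in both, Hist1h3b, Hist2h3c1, Hist2h3c2 and Hist1h4a lie below 0 in both, and most points of XX and XY lines lie close together.

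Among the linker histones, which bind DNA between nucleosomes, 5 of 6 were higher in CB XX than in BC XX lines (median 1.37), and 0 of 6 were called in the XY comparison by limma (median 0.47, 2 at an unadjusted p under 0.05). *Hist1h1a*, the H1 gene of highest level per kilobase of coding sequence (22457), had values of 11497, 10179 and 5076 in the BC XX lines, 11854, 12757 and 17675 in BC XY, 13996 and 12808 in BC XO, 19619, 18900 and 16325 in CB XX and 20945, 16404 and 13808 in CB XY lines. *Hist1h1d* (10103 per kilobase) had 4530, 3538 and 1486 in the BC XX lines, 4881, 5311 and 5897 in BC XY, 5344 and 6472 in BC XO, 12296, 10319 and 4968 in CB XX and 11681, 9500 and 7978 in CB XY lines. *Hist1h1b* (9785 per kilobase) had 3884, 4297 and 2387 in the BC XX lines, 6136, 5637 and 6646 in BC XY, 6364 and 6538 in BC XO, 9397, 9862 and 6474 in CB XX and 9746, 7498 and 7192 in CB XY lines. Levels per kilobase, here and below, divide the value by the coding length alone. *Hist1h1d* has an annotated transcript of 3821 bases with 666 of coding sequence, so that these levels do not rank genes of unlike transcript length. In each of these 3 H1 genes the CB XX lines lay above all BC XX lines, and BC XX 3 was the lowest line. The difference between CB XX and BC XX lines was 1.12 (SE 0.26, FDR 0.0257) for *Hist1h1a*, 1.57 (SE 0.36, FDR 0.0252) for *Hist1h1d* and 1.30 (SE 0.22, FDR 0.00524) for *Hist1h1b*. In XY lines it was 0.28 (SE 0.26, FDR 0.609), 0.84 (SE 0.36, FDR 0.229) and 0.40 (SE 0.22, FDR 0.343) in the same order, and CB and BC lines overlapped in *Hist1h1a*. With CB XY 1 alone they were 0.59 (FDR 0.575), 1.13 (FDR 0.465) and 0.67 (FDR 0.460).

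H2A forms a dimer with H2B on the outside of the nucleosome, and 10 of 13 H2A members were higher in CB XX and 7 of 13 in CB XY lines, with medians of 2.42 and 2.21. The 3 H2A members of highest mean had 3703 (*Hist1h2ab*), 2388 (*Hist1h2ac*) and 2115 (*Hist3h2a*) per kilobase. *Hist1h2ab* had values of 620, 468 and 191 in the BC XX lines, 593, 825 and 787 in BC XY, 907 and 954 in BC XO, 3164, 2661 and 1051 in CB XX and 3342, 2387 and 2425 in CB XY lines. *Hist1h2ac* had 441, 329 and 173 in the BC XX lines, 301, 367 and 390 in BC XY, 565 and 509 in BC XO, 2379, 2103 and 642 in CB XX and 1860, 1636 and 1444 in CB XY lines. In both genes each CB line, CB XX 3 included, was above each BC line. In XX lines the difference was 2.42 (SE 0.41, FDR 0.00583) for *Hist1h2ab* and 2.31 (SE 0.41, FDR 0.00767) for *Hist1h2ac*, and in XY lines 1.88 (SE 0.41, FDR 0.0531) and 2.21 (SE 0.41, FDR 0.0313). *Hist3h2a*, in cluster 3, stood at 610, 451 and 221 in the BC XX lines, 368, 515 and 536 in BC XY, 536 and 452 in BC XO, 1006, 2297 and 538 in CB XX and 1490, 1211 and 1403 in CB XY lines. Its CB XX and BC XX lines overlapped, and its differences of 1.44 (SE 0.43, FDR 0.0553) in XX lines and 1.54 (SE 0.43, FDR 0.0922) in XY lines did not pass.

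The widest H2A differences were in genes of low level in BC lines. *Hist1h2ak*, a gene of 1 exon (chr13:21845264-21845776, minus strand, mm9), had values of 30.4, 17.9 and 2.95 in the BC XX lines, 24.98, 45.7 and 42.2 in BC XY, 148 and 67.6 in BC XO, 1170, 1296 and 46.2 in CB XX and 1630, 1329 and 1168 in CB XY lines. *Hist1h2an* had 11.3, 7.33 and 1.96 in the BC XX lines, 11.2, 16.6 and 10.04 in BC XY, 52.6 and 32.7 in BC XO, 577, 537 and 27.5 in CB XX and 501, 560 and 465 in CB XY lines. *Hist1h2af* had 10.1, 10.6 and 1.96 in the BC XX lines, 14.99, 14.1 and 18.1 in BC XY, 59.02 and 39.8 in BC XO, 459, 502 and 22.2 in CB XX and 804, 553 and 456 in CB XY lines. In these 3 genes the 5 CB lines other than CB XX 3 stood far above every BC line, and CB XX 3 lay below the highest BC line. The differences for *Hist1h2ak* were 4.52 (SE 0.92, FDR 0.0150) in XX and 5.04 (SE 0.92, FDR 0.0313) in XY lines, which on this scale is 23.0-fold and 32.9-fold. For *Hist1h2an* they were 4.28 (SE 0.79, FDR 0.00934) and 4.88 (SE 0.79, FDR 0.0227), and for *Hist1h2af* 3.98 (SE 0.80, FDR 0.0141) and 4.84 (SE 0.80, FDR 0.0227). A fold on the scale of log2(value + 5) understates the change of genes as low as these in BC lines. In cluster 2, *Hist2h2ac* had values of 110, 69.2 and 17.7 in the BC XX lines, 64.9, 68.2 and 48.9 in BC XY, 147 and 149 in BC XO, 1150, 1444 and 116 in CB XX and 1426, 1049 and 876 in CB XY lines. It differed by 3.34 (SE 0.74, FDR 0.0216) and 4.08 (SE 0.74, FDR 0.0313). *Hist1h2ae* had 117, 82.2 and 42.2 in the BC XX lines, 131, 147 and 156 in BC XY, 162 and 216 in BC XO, 1131, 1204 and 220 in CB XX and 1103, 791 and 867 in CB XY lines, all CB lines being above all BC lines. Its differences were 3.09 (SE 0.51, FDR 0.00517) and 2.62 (SE 0.51, FDR 0.0360). *Hist1h2ah*, the lowest member, had 2.95 to 11.2 in BC and 12.4 to 46.5 in CB lines, with differences of 0.98 (SE 0.42, FDR 0.158) and 1.14 (SE 0.42, FDR 0.170) that did not pass. With CB XY 1 alone the XY differences were 2.19 (FDR 0.306) for *Hist1h2ab*, 2.39 (FDR 0.275) for *Hist1h2ac*, 1.66 (FDR 0.393) for *Hist3h2a*, 5.30 (FDR 0.286) for *Hist1h2ak*, 4.86 (FDR 0.257) for *Hist1h2an*, 5.29 (FDR 0.236) for *Hist1h2af*, 4.46 (FDR 0.269) for *Hist2h2ac*, 2.89 (FDR 0.287) for *Hist1h2ae* and 1.997 (FDR 0.286) for *Hist1h2ah*. By limma 0 H2A members were then called, and 12 of 13 had an unadjusted p under 0.05. Without *Hist1h2ah* and *Hist1h2ai*, 9 of 11 H2A members were higher in CB XX and 6 of 11 in CB XY lines with all lines in.

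Among H2B genes 12 of 17 were higher in CB XX and 6 of 17 in CB XY lines, with medians of 1.65 and 1.27. *Hist2h2bb* was the member of highest mean value, 17307, or 47679 per kilobase of coding sequence, which is 363 of the 1511 bases of its transcript. It had values of 15638, 13470 and 7680 in the BC XX lines, 19024, 15446 and 12901 in BC XY, 14811 and 19386 in BC XO, 22860, 23344 and 19054 in CB XX and 23275, 17136 and 18279 in CB XY lines. Its cross difference in XX lines, 0.88 (SE 0.24, FDR 0.0401), was the smallest of the 45 called, and in XY lines it was 0.31 (SE 0.24, FDR 0.507) with overlapping lines. *Hist1h2bb* (7197 per kilobase) had 2298, 2035 and 1526 in the BC XX lines, 1520, 1606 and 1720 in BC XY, 1981 and 1941 in BC XO, 5094, 4658 and 2275 in CB XX and 3974, 4033 and 3728 in CB XY lines. *Hist1h2be* (6025 per kilobase) had 677, 536 and 278 in the BC XX lines, 506, 735 and 498 in BC XY, 1171 and 925 in BC XO, 6147, 4449 and 1064 in CB XX and 6115, 4871 and 4164 in CB XY lines. Both were higher in CB lines in each comparison, by 0.97 (SE 0.24, FDR 0.0328) and 1.27 (SE 0.24, FDR 0.0359) for *Hist1h2bb* and by 2.71 (SE 0.49, FDR 0.00883) and 3.12 (SE 0.49, FDR 0.0227) for *Hist1h2be*. In *Hist1h2bb*, CB XX 3 fell just below BC XX 1, so that the XX groups overlapped. *Hist1h2bk*, low in BC lines, had 14.3, 7.33 and 1.96 in the BC XX lines, 7.49, 21.6 and 18.7 in BC XY, 67.8 and 35.6 in BC XO, 610, 447 and 30.2 in CB XX and 420, 499 and 421 in CB XY lines. Its CB lines other than CB XX 3 stood apart, and it differed by 4.18 (SE 0.79, FDR 0.0104) and 4.50 (SE 0.79, FDR 0.0280). *Hist2h2be*, an H2B gene known from olfactory neurons and 1 of the 3 members without the stem-loop, had values of 40.5, 34.6 and 41.3 in the BC XX lines, 39.97, 29.9 and 46.9 in BC XY, 54.2 and 58.3 in BC XO, 387, 419 and 48.9 in CB XX and 345, 327 and 387 in CB XY lines. Here CB XX 3 was within the BC range, and the gene differed by 2.25 (SE 0.56, FDR 0.0320) and 3.04 (SE 0.56, FDR 0.0313). With CB XY 1 alone the XY differences were 0.58 (FDR 0.559) for *Hist2h2bb*, 1.30 (FDR 0.308) for *Hist1h2bb*, 3.41 (FDR 0.231) for *Hist1h2be*, 4.42 (FDR 0.290) for *Hist1h2bk* and 3.01 (FDR 0.307) for *Hist2h2be*, and 0 H2B members were called by limma (10 at an unadjusted p under 0.05).

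H3 and H4 form the tetramer at the centre of the nucleosome, and 7 of 12 H3 members were higher in CB XX and 2 of 12 in CB XY lines. Without *Hist1h3b* and *Hist2h3b* the counts were 6 of 10 and 1 of 10. *Hist1h3f* (9295 per kilobase) had values of 2288, 1324 and 260 in the BC XX lines, 1705, 1936 and 2185 in BC XY, 3218 and 2847 in BC XO, 8282, 7066 and 2295 in CB XX and 7287, 7137 and 5653 in CB XY lines. *Hist1h3g* (4043) had 891, 631 and 163 in the BC XX lines, 772, 852 and 784 in BC XY, 1313 and 1359 in BC XO, 3421, 3245 and 979 in CB XX and 3235, 3156 and 2465 in CB XY lines. *Hist1h3a* (3101) had 815, 526 and 102 in the BC XX lines, 573, 556 and 636 in BC XY, 855 and 847 in BC XO, 2614, 2337 and 716 in CB XX and 2973, 2358 and 1934 in CB XY lines. In all 3 genes the CB XY lines were above all BC XY lines, yet their XY differences of 1.78 (SE 0.60, FDR 0.135), 1.86 (SE 0.52, FDR 0.0917) and 2.01 (SE 0.59, FDR 0.103) did not pass. In XX lines the differences were 2.46 (SE 0.60, FDR 0.0301), 2.28 (SE 0.52, FDR 0.0235) and 2.19 (SE 0.59, FDR 0.0411), and in *Hist1h3a* CB XX 3 lay below BC XX 1. With CB XY 1 alone the XY differences of *Hist1h3f*, *Hist1h3g* and *Hist1h3a* were 1.91 (FDR 0.462), 2.01 (FDR 0.393) and 2.33 (FDR 0.383).

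*Hist1h3e*, a gene of 1 exon (chr13:23653403-23654238, minus strand, mm9), had the largest cross difference of all members in both comparisons on the scale of log2(value + 5). Its values were 53.6, 38.7 and 5.89 in the BC XX lines, 34.97, 54.03 and 52.2 in BC XY, 105 and 101 in BC XO, 2536, 2009 and 83.5 in CB XX and 2846, 2193 and 1964 in CB XY lines. Thus 5 CB lines stood at 1964 or more while the BC lines and CB XX 3 stood between 5.89 and 105. The difference was 4.66 (SE 0.94, FDR 0.0142) in XX lines and 5.49 (SE 0.94, FDR 0.0252) in XY lines, and 5.796 (FDR 0.257) with CB XY 1 alone. By the ratio of group means *Hist2h3b* was wider in both comparisons, and *Hist1h2an* and *Hist1h2ak* were wider in XX lines. *Hist2h3b*, another H3 gene and a member only through its CB values, had 0, 1.63 and 0 in the BC XX lines, 0, 2.49 and 0 in BC XY, 0 and 2.85 in BC XO, 82.4, 43.9 and 0.889 in CB XX and 84.8, 54.03 and 53.2 in CB XY lines. No BC line exceeded 2.85 and CB XX 3 lay among them. If steps are taken as reads, BC XX lines held 4 reads of *Hist2h3b* and CB XX lines 95, a ratio of 45.3 after scaling (95% interval 17.1 to 170). The BC XY lines held 3 and CB XY lines 105, a ratio of 74.7 (24.9 to 368). These intervals cover counting error only and not the spread between lines, which ran from 0.889 to 82.4 in CB XX. The fitted differences were 2.42 (SE 0.69, FDR 0.0491) and 3.56 (SE 0.69, FDR 0.0360), descriptions for a gene that is a member through its CB values. The XY difference was 3.97 (FDR 0.275) with CB XY 1 alone.

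Only 4 members had negative differences in both comparisons, all H3 or H4 genes, and none was called lower in CB lines. *Hist1h3b*, a gene of 1 exon (chr13:23844136-23844755, plus strand, mm9) and a member only through its BC values, had values of 92.8, 56.6 and 9.82 in the BC XX lines, 42.5, 34.1 and 50.2 in BC XY, 98.9 and 69.00 in BC XO, 4.26, 1.22 and 49.8 in CB XX and 0, 0 and 1.30 in CB XY lines. Its differences were -1.61 (SE 0.71, FDR 0.169) in XX and -3.12 (SE 0.71, FDR 0.0607) in XY lines, and -3.23 (FDR 0.355) with CB XY 1 alone. By steps its 3 CB XY lines together held 1 read against 150 in the BC XY lines, a BC to CB ratio of 70.3 (95% interval 12.4 to 2795, counting error only). Here too CB XX 3, at 49.8, lay within the range of the BC lines, and without BC XX 3 and CB XX 3 the gene was called lower in CB lines in both comparisons. *Hist1h4a* had 382, 215 and 45.2 in the BC XX lines, 270, 307 and 257 in BC XY, 282 and 437 in BC XO, 101, 53.6 and 389 in CB XX and 137, 292 and 51.9 in CB XY lines. Its lines overlapped in both comparisons, with differences of -0.27 (SE 0.76, FDR 0.859) and -1.07 (SE 0.76, FDR 0.477). *Hist2h3c1* and *Hist2h3c2*, in cluster 2, ranged from 51.0 to 163 and from 21.9 to 55.1 over the 14 lines, with differences of -0.64 and -0.59 in XX and of -0.22 and -0.28 in XY lines that did not pass.

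H4 genes, whose product lies in every nucleosome, were higher in CB XX lines in 11 of 12 members and 0 of 12 were called in XY lines by limma (11 at an unadjusted p under 0.05), with medians of 2.28 and 1.70. *Hist1h4h* (9402 per kilobase of coding sequence) had values of 1231, 811 and 180 in the BC XX lines, 1134, 1267 and 983 in BC XY, 1818 and 1960 in BC XO, 6948, 5661 and 1441 in CB XX and 7412, 5565 and 4656 in CB XY lines. *Hist4h4* (8250), the single gene on chromosome 6, had 1078, 848 and 365 in the BC XX lines, 964, 1097 and 788 in BC XY, 1285 and 1408 in BC XO, 7147, 4741 and 969 in CB XX and 5651, 4961 and 4736 in CB XY lines. *Hist1h4m* (6609) had 581, 326 and 93.3 in the BC XX lines, 644, 785 and 759 in BC XY, 783 and 1086 in BC XO, 5350, 4629 and 1007 in CB XX and 5344, 3787 and 3693 in CB XY lines. In the XY lines these 3 genes did not overlap between crosses, and their differences were 2.36 (SE 0.60, FDR 0.0757), 2.43 (SE 0.55, FDR 0.0559) and 2.53 (SE 0.60, FDR 0.0638), which did not pass. With CB XY 1 alone they were 2.72 (FDR 0.355), 2.58 (FDR 0.345) and 2.87 (FDR 0.340). In XX lines they were 2.75 (SE 0.60, FDR 0.0209), 2.20 (SE 0.55, FDR 0.0318) and 3.45 (SE 0.60, FDR 0.00672). Whether the XX and XY differences were unequal was tested by the interaction, which called 0 members by limma, against 0.0738% of all genes. At an unadjusted p under 0.05 it had 4 members, *Hist1h2bc*, *Hist1h1a*, *Hist1h1b* and *Hist1h1t*, against 9.05% of all genes.

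Called members lay in 3 of the 4 clusters. In XX lines 38 of 48 members of cluster 1, 6 of 8 of cluster 2, 0 of 3 of cluster 3 and the single gene of cluster 4 were higher in CB, and in XY lines 12, 3, 0 and 0 were. Of 12 members with under 10% of their 50-base words in another member 8 were higher in CB XX lines and 1 in CB XY lines, with medians of 1.57 and 1.06. Of 28 with 10% to 50% shared 23 and 10 were, with medians of 2.13 and 1.77. Of 18 with at least 50% shared 14 and 4 were, with medians of 2.40 and 1.87. The 13 members with a transcript over 1000 bases had medians of 2.25 and 1.78, and the 47 shorter ones 2.05 and 1.68. H2A and H2B genes with and without the octamer had medians of 2.14 and 2.02 in XX lines and of 1.71 and 1.68 in XY lines.

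GC content moved with the cross difference over all genes. Members had a median transcript GC content of 59.0% against 50.6% of the other genes tested, and the median difference of other genes between CB XY and BC XY ran from -0.32 at 30% to 40% GC to 1.10 at 65% to 70%. The members had medians of 1.47 at 55% to 60% GC, where 3106 other genes had a median of 0.31, and of 1.77 at 60% to 65%, where 709 other genes had 0.74. In XX lines the members' medians were 1.73 and 2.19 in the same ranges, and those of the other genes 0.36 and 0.66. The 6 members under 50% GC had medians of 2.28 in XX and 2.31 in XY lines. With values corrected for GC content, an analysis chosen after the data were seen, 38 members were higher and 0 lower in CB XX lines, against 253 and 677 of all 16261 genes. In CB XY lines 13 members were higher and 1, *Hist1h3b*, lower, against 34 and 9 of all genes. The members' medians were 1.52 and 1.09. The part of GC content and of the lower depth of the CB lines in the cross difference was not tested further.

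**Figure D3:**
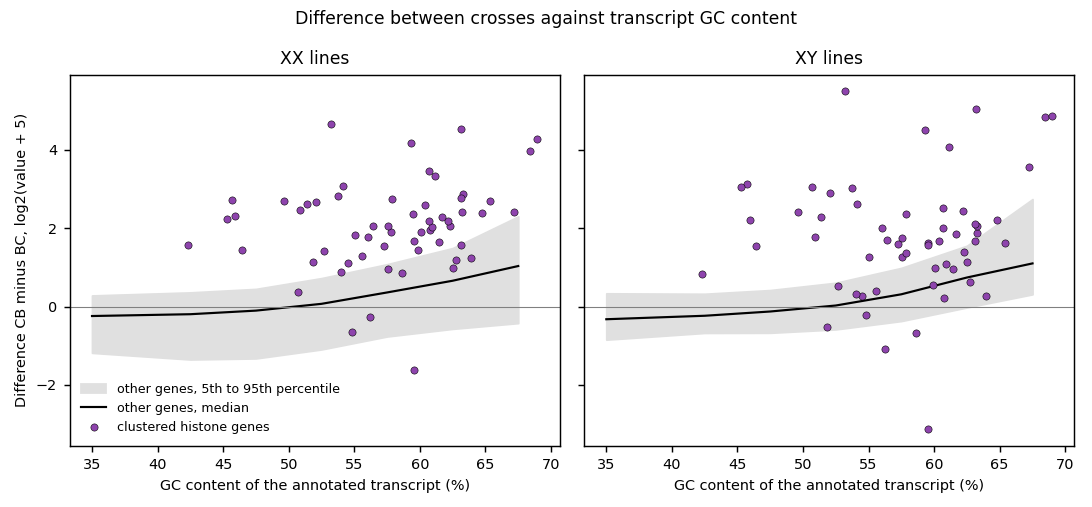
Difference between CB and BC lines (log2(value + 5)) of each member (purple points) against the GC content of its annotated transcript in percent, in XX lines (left) and XY lines (right), with the median (line) and the 5th to 95th percentile (grey band) of the other genes tested. Most members lie above the median line, and in both panels the band itself rises with GC content.

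Fibroblast markers moved with the XX comparison. Of 28 markers 17 were lower in CB XX than in BC XX lines, against 4.25% of all genes, with *Postn* at -5.88 (SE 0.71, FDR 0.00125), *Acta2* at -4.76 (SE 0.69, FDR 0.00274), *Col5a2* at -3.76 (SE 0.76, FDR 0.0138) and *Tagln* at -3.75 (SE 0.48, FDR 0.00136) as the widest. Between CB XY and BC XY lines 0 were called by limma (7 at an unadjusted p under 0.05), with a median of 0.18. With the mean marker level as a term in the model, 0 members were called in XX lines, 14 had an unadjusted p under 0.05 and the median was 1.09. Over all genes 32 were called higher and 9 lower in CB XX lines by that model, in place of 471 and 691. The loss of calls was thus not limited to the members. In XY lines 37 members were higher and 1, *Hist1h3b*, lower in CB by the same model, with a median of 1.85. Calls over all genes rose there too, in both directions, with 700 of 16261 genes called higher in place of 89. The calls of members in XY lines thus rose together with those of other genes. The XY groups had fibroblast levels of 9.55, 8.87 and 8.46 in BC and 9.60, 8.45 and 9.84 in CB lines. Of 10 primitive endoderm markers 5 were lower in CB XX than in BC XX lines, among them *Gata6* at -2.75 (SE 0.51, FDR 0.00997), and 0 were called between CB XY and BC XY lines (0 at an unadjusted p under 0.05). Of the 14 ES cell markers *Utf1* and *Klf2* were higher in CB XX lines, by 2.03 (SE 0.43, FDR 0.0178) and 1.46 (SE 0.33, FDR 0.0219), and *Klf2* in CB XY lines, by 1.63 (SE 0.33, FDR 0.0388). The part of these cells and genes in the members' values was not tested.

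Comparison of lines labelled XX with lines labelled XY, the contrast of the sex chromosome complement, gave few calls. The XY lines include those labelled CB XY 2 and CB XY 3, with *Uty* in the range of XX and XO lines. Over 12 lines 1 of 59 members tested, *Hist1h2ba*, was called higher, against 3.21% of 15311 genes, and the median member difference was -0.50, against -0.03 over all genes. That median was 0.03 without BC XX 3 and CB XX 3, and it was 0.57 with the fibroblast level in the model. In BC lines 1 member, *Hist1h2bc*, was higher in XX lines, against 4.46% of 16261 genes, and 1, *Hist1h1b*, was lower, against 1.24%. The BC lines had a median of -0.65 that was -0.10 without BC XX 3 and 0.60, the opposite direction, with the fibroblast level in the model. With values corrected for GC content it was -0.38. In the same comparison 20 of 28 fibroblast markers were higher in BC XX lines, with a median of 2.21, and the part of fibroblast RNA in the members' values was not tested further. In CB lines the median was -0.36. It was 0.19 without CB XX 3, -0.59 with CB XY 1 as the only CB XY line and -0.04 with values corrected for GC content. By limma 1 member was higher in CB XX lines, again *Hist1h2ba*, against 2.11% of all genes. These shares of members are near those of all genes. Over 12 lines the count was 0 without BC XX 1, BC XX 2, BC XY 1, BC XY 2, CB XX 2, CB XX 3 or any CB XY line, and 2 without BC XX 3. In BC lines it was 0 without BC XX 3, BC XY 2 or BC XY 3 and 1 without BC XX 2, BC XY 1 or either XO line. In CB lines it was 0 without CB XX 2 or any CB XY line and 2 without BC XX 3.

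XO lines had the highest histone sums among BC lines. The XO lines were above all BC XY lines in 36 of 60 members, against 9.01% of all genes, and the median difference was 0.42 (0.72 with the fibroblast level in the model). By limma 0 members were called, against 0.00615% of all genes, and 0 had an unadjusted p under 0.05, against 1.49%. Between BC XX and XO lines 1 member, *Hist1h1b*, was lower in XX lines, against 1.61% of all genes, with a difference of -0.92 (SE 0.24, FDR 0.0463). The BC XX lines were below both XO lines in 38 members, against 23.5% of all genes. The median of -1.11 was -0.55 without BC XX 3, -0.19 with the fibroblast level in the model and -0.68 with values corrected for GC content. Without the GC correction 12 of 28 fibroblast markers were higher in BC XX than in XO lines, against 3.06% of all genes, with a median of 1.74. The GC correction also changed the members called. With that correction 1 member was called higher and 0 lower in XX lines, against 403 and 107 of all genes. The count of members called was 10 without BC XX 1, all lower, and 11 without CB XX 3, 10 lower and 1 higher. It was 2 without BC XY 1, BC XY 3 or CB XX 1, 1 lower and 1 higher each time, and 0 without any 1 of the other lines. Over all genes 562 were higher and 428 lower without BC XX 1, and 568 and 366 without CB XX 3, in place of 497 and 261.

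*Hist1h1b*, one of the H1 genes described above, was lower in BC XX than in BC XY lines, with a difference of -0.84 (SE 0.22, FDR 0.0362). Its BC XX lines, at 3884, 4297 and 2387, were below all BC XY lines, at 6136, 5637 and 6646. Without BC XX 3 the difference of *Hist1h1b* was -0.58 (FDR 0.148). *Hist1h2bc*, an H2B gene with 2 annotated exons at chr13:23776068-23784357, plus strand, had values of 356, 529 and 840 in the BC XX lines, 170, 113 and 85.7 in BC XY, 231 and 139 in BC XO, 1232, 1172 and 237 in CB XX and 1002, 1071 and 968 in CB XY lines. It was higher in BC XX than in BC XY lines without overlap, by 2.15 (SE 0.51, FDR 0.0263), and higher in CB XY than in BC XY lines by 3.05 (SE 0.51, FDR 0.0232), or 3.03 (FDR 0.269) with CB XY 1 alone. Between CB XX and CB XY lines it differed by -0.53 (SE 0.51, FDR 0.618), with CB XX 3 below the other 5 CB lines. Its interaction of complement and cross was -2.67 (SE 0.72, unadjusted p = 0.00219, FDR 0.245). With *Hist2h3c1* and *Hist2h3c2* it was 1 of 3 members whose highest BC line was BC XX 3, the line with the highest fibroblast level. With that level in the model its BC difference was 2.04 (SE 0.96, FDR 0.548). It was not called without BC XX 2, BC XX 3, BC XY 2 or BC XY 3, with FDRs of 0.00306 to 0.548 over all alternatives.

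A pair of neighbouring genes had a pattern of its own. *Hist1h2ba* (chr13:24025637-24026025, minus strand, mm9) encodes the H2B variant of testis and *Hist1h2aa* (chr13:24026331-24026720, plus strand) its H2A partner, and they are transcribed away from each other. Their promoter windows overlap, and the 250 bases before each start (GRCm38.p6) are given with the motifs above in capitals to show the shared octamer and CCAAT letters.
Hist1h2ba, chr13:23934157-23934406, minus strand: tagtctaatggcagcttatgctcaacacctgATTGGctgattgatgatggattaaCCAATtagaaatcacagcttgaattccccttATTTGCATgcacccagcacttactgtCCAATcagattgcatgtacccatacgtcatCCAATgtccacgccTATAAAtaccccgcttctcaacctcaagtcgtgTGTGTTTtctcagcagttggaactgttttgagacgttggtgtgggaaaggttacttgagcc
Hist1h2aa, chr13:23934187-23934436, plus strand: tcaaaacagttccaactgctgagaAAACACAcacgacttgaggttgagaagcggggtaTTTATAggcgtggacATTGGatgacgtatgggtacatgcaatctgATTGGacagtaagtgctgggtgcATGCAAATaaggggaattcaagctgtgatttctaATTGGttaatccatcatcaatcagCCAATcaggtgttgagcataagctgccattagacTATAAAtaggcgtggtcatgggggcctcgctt
*Hist1h2ba* had values of 306, 368 and 134 in the BC XX lines, 57.5, 122 and 274 in BC XY, 44.7 and 70.4 in BC XO, 242, 718 and 533 in CB XX and 109, 56.5 and 73.99 in CB XY lines. It was higher in XX lines by 1.72 (SE 0.42, FDR 0.0322) over the 12 lines, although BC XX 3, at 134, and BC XY 3, at 274, overlapped. Between CB XX and CB XY lines, which did not overlap, it was higher by 2.48 (SE 0.53, FDR 0.0213), and the 3 CB XX lines were not above all BC XX lines. *Hist1h2aa* had 230, 173 and 31.4 in the BC XX lines, 62.4, 79.8 and 204 in BC XY, 61.4 and 79.7 in BC XO, 337, 875 and 296 in CB XX and 172, 81.05 and 122 in CB XY lines. It differed between CB XX and CB XY lines by 1.85 (SE 0.63, unadjusted p = 0.0104, FDR 0.126), without overlap. *Hist1h1t*, the H1 gene of testis, had 107, 101 and 33.4 in the BC XX lines, 62.4, 101 and 197 in BC XY, 82.9 and 61.9 in BC XO, 121, 239 and 152 in CB XX and 123, 54.03 and 58.4 in CB XY lines. Its lines overlapped, with a difference of 1.11 (SE 0.48, unadjusted p = 0.0353, FDR 0.228) in the same comparison. With CB XY 2 and CB XY 3 left out, the difference of *Hist1h2ba* was 1.43 (SE 0.47, FDR 0.151) over all lines and 2.005 (SE 0.78, FDR 0.303) in the CB cross.

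**Figure D4:**
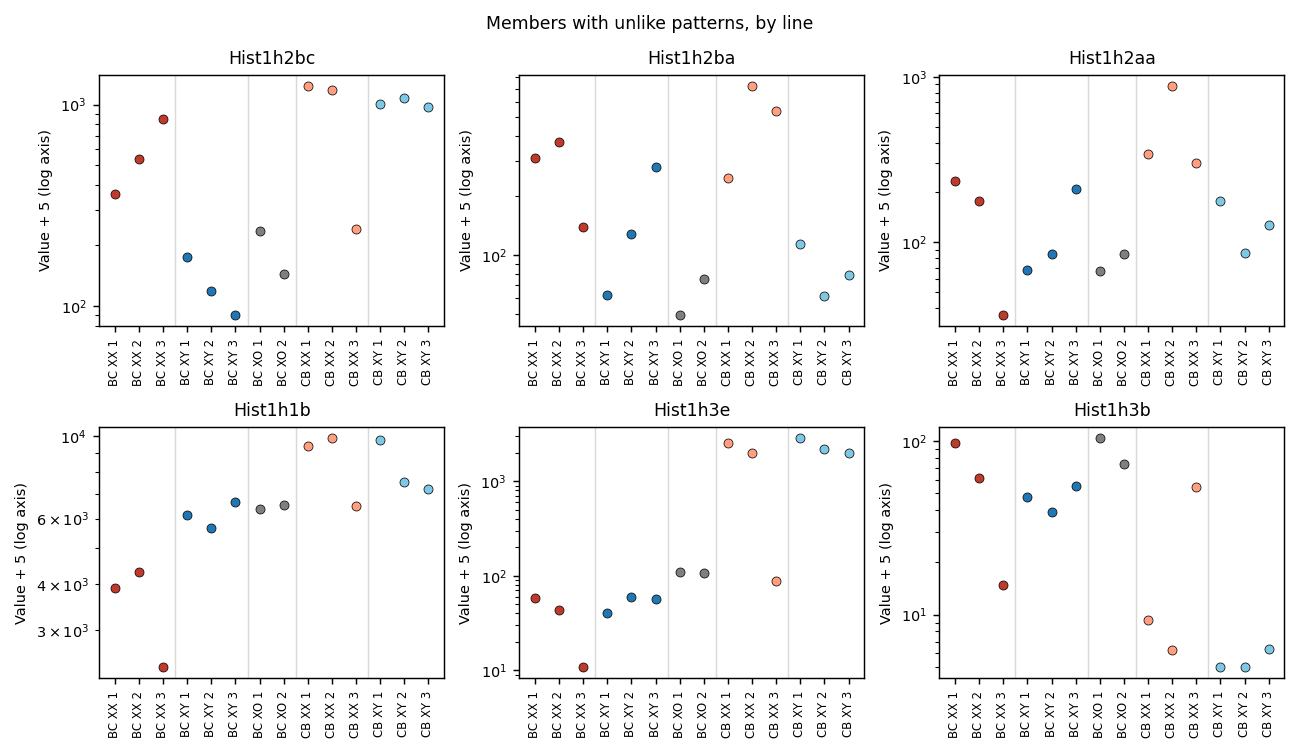
Value + 5 (log axes) of 6 members in each of the 14 lines, 1 point per line. Hist1h3e follows the cross except in CB XX 3, Hist1h3b runs the other way, Hist1h1b is lowest in the BC XX lines, Hist1h2bc is high in the BC XX lines and in 5 CB lines, and Hist1h2ba and Hist1h2aa are high in CB XX 2.

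Of 12 replication-independent histone genes tested, 2 were higher in CB XX lines, against 2.9% of all genes, and 1 in CB XY lines, against 0.547%, with list medians of 0.33 and 0.07. At an unadjusted p under 0.05 there were 5 and 6 of 12, against 26.5% and 18.7% of all genes. *H2afx*, which encodes the H2A variant that is phosphorylated at DNA breaks and whose mRNA can end in a stem-loop, had values of 1178, 1265 and 1053 in the BC XX lines, 1064, 1588 and 1707 in BC XY, 2235 and 1452 in BC XO, 10186, 9223 and 1393 in CB XX and 11774, 9276 and 7791 in CB XY lines. CB XX 3 again stood with the BC lines, and the differences were 2.12 (SE 0.54, FDR 0.0336) and 2.73 (SE 0.54, FDR 0.0379). *H1fx* was higher in CB XX lines by 2.57 (SE 0.70, FDR 0.0420), and its XY difference of 2.81 (SE 0.70, FDR 0.0716) did not pass. *H2afj* differed by 0.89 (SE 0.36, FDR 0.136) in XX and 1.67 (SE 0.36, FDR 0.0515) in XY lines, which did not pass either. *H2afz*, the variant of promoters, had 23350, 19495 and 20567 in the BC XX lines, 35346, 25142 and 19675 in BC XY, 21013 and 27886 in BC XO, 27397, 30288 and 22176 in CB XX and 30792, 23151 and 25766 in CB XY lines, without a called difference. *H3f3a* and *H3f3b*, which encode the replacement H3, differed by 0.26 and 0.08 in XX lines and by -0.39 and -0.05 in XY lines, and none passed.

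Of 44 genes that mark S phase 3 were higher in CB XX lines (*Pold1*, *Cdt1* and *Ung*), against 2.9% of all genes, and 1 in CB XY lines (*Cdt1*), against 0.547%, with list medians of 0.19 and -0.04. At an unadjusted p under 0.05 there were 17 and 6 of 44, against 26.5% and 18.7% of all genes. The mean log2(value + 5) of the list was 11.43 to 11.94 in the BC and 11.81 to 12.02 in the CB lines. The members' own mean was 6.39 to 8.34 in the BC lines, 8.36 in CB XX 3 and 9.44 to 9.91 in the other CB lines. Of 27 genes of G2 and M phase 1, *Plk1*, was higher in CB XX lines, against 2.9% of all genes, and 0 were called in XY lines. At an unadjusted p under 0.05 there were 7 and 13 of 27, against 26.5% and 18.7% of all genes. The list medians were -0.01 in XX and -0.32 in XY lines, against 0.01 and -0.01 over all genes. Of 38 genes of histone mRNA processing, transcription and chaperones 1, *Upf1*, a helicase needed for the decay of histone mRNA, was higher in CB XX lines, by 1.08 (SE 0.20, FDR 0.00929), and 0 were called in XY lines (6 at an unadjusted p under 0.05). *Slbp* had values of 4057, 3612 and 3757 in the BC XX lines, 4739, 4349 and 5795 in BC XY, 3654 and 3649 in BC XO, 3680, 3787 and 4675 in CB XX and 4633, 4276 and 4075 in CB XY lines, without a clear order by cross. Its differences of 0.08 (SE 0.14, FDR 0.759) and -0.19 (SE 0.14, FDR 0.505) did not pass. *Npat* differed by -0.03 (SE 0.14) and -0.22 (SE 0.14).

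Between XX and XY lines over both crosses, 3 of the 38 supply genes were higher in XX lines, against 3.21% of all genes, *Atrx* by 0.86 (SE 0.13, FDR 0.00201), *Cstf2* by 0.69 (SE 0.11, FDR 0.00297) and *Rbbp7* by 0.56 (SE 0.08, FDR 0.00219), and all 3 lie on the X chromosome. *Atrx* encodes a chromatin remodeller that deposits the replacement H3, *Cstf2* a subunit of the factor that cleaves the ends of mRNAs, and *Rbbp7* a histone-binding protein. *Cdk2*, the kinase that acts at the start of S phase, was lower in XX lines by 0.64 on the log2 scale (difference -0.64, SE 0.16, FDR 0.0342), 1 of 38 against 1.99% of all genes. Of the S phase genes *Pola1*, also X-linked, was higher by 0.89 (SE 0.13, FDR 0.00174).

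**Figure D5:**
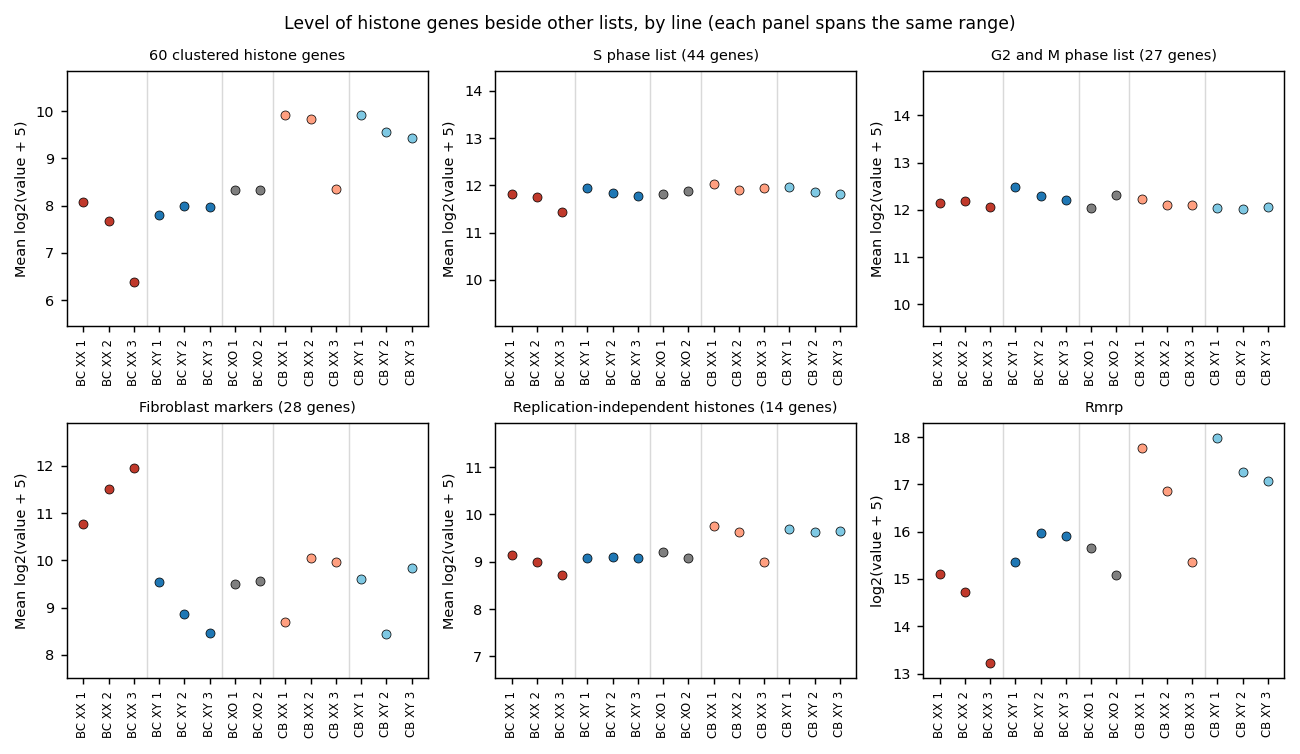
Mean log2(value + 5) by line of the 60 members, of 44 S phase genes, 27 G2 and M phase genes, 28 fibroblast markers and 14 replication-independent histone genes, and log2(value + 5) of Rmrp, each panel spanning the same range. The members lie between 6.39 and 9.91, the S phase list between 11.43 and 12.02 and the G2 and M list between 12.01 and 12.48. Fibroblast markers are highest in the BC XX lines, and Rmrp separates the CB lines other than CB XX 3 from the BC lines.

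*Rmrp*, the RNA of the RNase MRP enzyme and a transcript without a poly(A) tail, was singled out after its values were seen. It had values of 35308, 26951 and 9554 in the BC XX lines, 41860, 64201 and 61900 in BC XY, 51348 and 34735 in BC XO, 221770, 118310 and 41881 in CB XX and 257810, 157070 and 137500 in CB XY lines, which put the 5 CB lines other than CB XX 3 above all BC lines. BC XX 3 was the lowest line. Its difference was 2.31 (SE 0.53, FDR 0.0247) in XX lines and 1.69 (SE 0.53, FDR 0.118) in XY lines.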

How the data were processed

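Stranded total RNA libraries of 14 ES cell lines were analysed. The authors aligned single-end reads to mm9 with TopHat2 and compared genes with the Cufflinks suite (Cuffdiff in the submitters' processing notes). The deposited values are a signal, the reads of a gene after scaling to equal depth by the authors, and 97.4% to 98.2% of a line's values are whole multiples of 1 step (tolerance 0.01 of a step). How the values were scaled, how reads with several matches were treated and which lines shared a library batch is not given in the sources used here, so that batches were not modelled. Counts of reads stated in the text take 1 step as 1 read. The planned edgeR and DESeq2 fits of recovered reads were not run because the remaining values were not whole multiples of a step.

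All tests ran on log2(value + 5), for genes where at least 6 of 12 lines (XX against XY) or 2 of 14 lines (model of 5 groups, which share 1 estimate of the spread) had a value of 10 or more, and 15 genes listed at 0 in a whole group and at 100 or more elsewhere were left out. Differences were tested two-sided with limma 3.58.1 (trended variance, moderated statistics, R 4.3.3) with p-values adjusted by Benjamini and Hochberg across every gene in the fit, at an FDR of 0.05. Tables were joined with Python 3.11.15. Simulated data in which 200 genes differed were used to test the fits. SE is the standard error of a log2 difference. Coordinates, transcripts and stem-loops are from the GENCODE annotation of mm9 (NCBIM37), and promoters from RefSeq on GRCm38.p6. Identity and shared 50-base words were computed among the 67 genes of the symbol rule.

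The members, lists and tests were chosen with earlier results of these data known. Named are, per comparison, up to 8 called members of the largest difference, the 3 members of highest mean per class, *Hist1h2bc*, the members next to the limit of 10, and up to 4 called genes per list. *Hist2h2be*, *Hist1h2aa*, *Hist1h1t*, *Hist1h4a*, *Hist1h3b*, *Hist2h3c1*, *Hist2h3c2*, *H2afj*, *H2afz*, *H3f3a*, *H3f3b*, *Slbp*, *Npat* and the RNAs without a poly(A) tail were named after their values were seen. The lines are separate cultures by the labels. Alternatives changed 1 choice at a time: pseudocounts of 1 and 20, other scalings, other filters, covariates, a replicate block and each line left out. A correction for GC content and the removal of BC XX 3 and CB XX 3 together were chosen after the data were seen.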

Additional observations from a re-analysis of the deposited data

How the results depend on the processing

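Over 8 comparisons, pseudocounts of 1 and 20, TMM and median-of-ratios factors, quantile normalization and a filter at 50 moved the count of members called by over 1.5 times only between BC XX and XO lines (1 called, 0 at a pseudocount of 1 and 2 with quantile normalization). No filter on low values gave 1 in place of 2 between BC XX and BC XY, 0 between BC XX and XO, and 0 in place of 15 between CB XY and BC XY lines. The 5-group model gave 2 in place of 1 for XX against XY. Without the lines labelled CB XY 2 and 3 the counts were 0 for XX against XY, 1 for BC XX against BC XY, 0 for CB XX against CB XY, 0 for BC XX against XO and 0 for CB XY against BC XY. The fibroblast covariate gave 0 for BC XX against BC XY, 0 for BC XX against XO, 0 for CB XX against BC XX and 38 for CB XY against BC XY. Calls over all genes fell and rose in the same comparisons. GC correction gave 2 for CB XX against CB XY. Removal of BC XX 3 and CB XX 3 gave 1 for BC XX against BC XY, 2 for CB XX against CB XY, 3 for BC XX against XO and 45 for CB XY against BC XY. Leaving out each line in turn, the counts ranged from 0 to 2 for XX against XY, 0 to 3 for BC XX against BC XY, 0 to 2 for CB XX against CB XY, 0 to 11 for BC XX against XO, 5 to 52 for CB XX against BC XX and 0 to 34 for CB XY against BC XY. XO against XY and the interaction had 0 under every alternative run. Without the 3 highest members the log2 ratio of sums between CB XY and BC XY was 1.61 in place of 1.11. Between CB XX and CB XY lines it was -0.15, from -0.36 to 0.21 with each line left out, the positive value without CB XX 3. With each line left out it ranged from 1.19 to 1.93 for CB XX against BC XX, from 0.97 to 1.21 for CB XY against BC XY and from -0.88 to -0.23 for BC XX against BC XY. Same-numbered lines correlated from -0.49 to 0.27 in their deviations, so that the numbers do not pair lines, and the replicate block gave 2 for BC XX against XO and 30 for CB XY against BC XY, with no other count moved by over 1.5 times. Of the named members' values under alternatives 1027 stayed on the same side of the threshold, called or not, while 230 calls were lost, 44 were gained and 0 called values changed sign. Causes were not tested. edgeR and DESeq2 on whole reads were not run, because a part of the values were not whole multiples of a step.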

Other observations

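Besides *Rmrp*, other RNAs without a poly(A) tail were looked at after their values were seen. *Rpph1*, the RNA of RNase P, had values of 30198, 18317 and 4824 in the BC XX lines, 51727, 53258 and 43371 in BC XY, 67226 and 47516 in BC XO, 280920, 193740 and 37324 in CB XX and 365750, 216930 and 222460 in CB XY lines, with cross differences of 3.19 (SE 0.66, FDR 0.0157) in XX and 2.40 (SE 0.66, FDR 0.0907) in XY lines by limma. *Terc*, the RNA template of telomerase, had 1992, 1119 and 276 in the BC XX lines, 974, 877 and 842 in BC XY, 913 and 1192 in BC XO, 4302, 5126 and 1545 in CB XX and 5081, 2417 and 3341 in CB XY lines, with differences of 1.92 (SE 0.57, FDR 0.0550) and 1.94 (SE 0.57, FDR 0.103). *Scarna2*, a guide RNA of Cajal bodies, had 435, 271 and 122 in the BC XX lines, 342, 292 and 299 in BC XY, 463 and 491 in BC XO, 1781, 1385 and 316 in CB XX and 2300, 1341 and 1755 in CB XY lines, with differences of 1.90 (SE 0.53, FDR 0.0448) and 2.48 (SE 0.53, FDR 0.0499). In all 3, BC XX 3 was the lowest line and the 5 CB lines other than CB XX 3 lay above all BC lines.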
